A study of Mus musculus with 6 samples.

Results

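The N-end rule pathway degrades proteins according to their first residue, and 9 of its genes were examined in mouse embryonic stem (ES) cells with and without Tex19.1. The genes are the UBR-box ubiquitin ligase genes Ubr1, Ubr2, Ubr3, Ubr4 and Ubr7, the ubiquitin-conjugating enzyme genes Ube2a and Ube2b, and Ate1 and Wdyhv1, which encode enzymes that modify protein N termini. They were taken by symbol from the deposited table, and all 9 were found among its 10128 genes. There were 3 libraries of Tex19.1-/- ES cells and 3 of Tex19.1+/- ES cells, so the cells without Tex19.1 were set against cells that keep 1 copy and not against wild type. Both genotypes derive from E14Tg2a, a 129/Ola ES line, and were grown on gelatin in 10% foetal calf serum with leukaemia inhibitory factor, at passages 12 to 18. The labels do not say whether the libraries of a genotype came from 1 clone or from separate clones or cultures, so the p-values may measure technical spread, and clone and genotype cannot be told apart.

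In this pathway an N-terminal residue that marks a protein for destruction is called an N-degron. Some residues are destabilising only after processing: deamidases such as WDYHV1 convert glutamine to glutamate, ATE1 then adds arginine, and UBR1, UBR2 and UBR4 recognise the product. UBR1 and UBR2 work with UBE2A and UBE2B, the mammalian counterparts of yeast RAD6, to attach ubiquitin. The Tex19.1 protein of mouse germ cells and ES cells binds UBR2, and the comparison asks here whether the transcripts of the pathway differ when that partner is missing.

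Each gene has 1 log2 fold change, 1 mean level over the libraries in log2 CPM, which scales reads to the size of the library, and 1 p-value in the authors' deposited table, and values by library were not used here. The depth of each library is therefore unknown, and no spread between libraries can be printed. Intervals given below are approximate 95% intervals, computed here from the fold change and its deposited p-value under a normal approximation. Levels by genotype are likewise computed here, from the mean CPM and the fold change. A positive fold change is taken to mean a higher level in Tex19.1-/- cells, because Tex19.1 itself stands at -6.92 in the authors' deposited table, which corresponds to 0.828% of the heterozygous level. A gene is said to have risen or fallen where its adjusted p in that table is under 0.05. Of 8 ES cell markers all were measured; 3 rose and 2 fell, with log2 fold changes from -0.17 to 0.36 in the authors' deposited table and a summed level of 5962 CPM in Tex19.1-/- cells and 6153 CPM in Tex19.1+/- cells. All 8 measured endoderm markers of 10 listed were lower, with log2 fold changes from -1.56 to -2.93 in the authors' deposited table and a sum of 75.7 CPM in Tex19.1-/- cells and 328 CPM in Tex19.1+/- cells; the highest had a mean of 122 CPM. Of 9 fibroblast and feeder markers 1 was measured, Vim, which is not particular to fibroblasts, at 185 CPM in Tex19.1-/- cells and 233 CPM in Tex19.1+/- cells. The part that these endoderm-marked transcripts play in the values below was not tested.

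Of the 5 ligase genes among the 9, 4 fell in cells without Tex19.1, and both E2 genes rose. Of the 9 genes, 5 fell (Ubr1, Ubr2, Ubr3, Ubr4 and Ate1), 3 rose (Ube2a, Ube2b and Wdyhv1), and Ubr7 did not pass. Over all genes tested by the authors 51.7% passed, 26.5% lower and 25.2% higher, so that a call alone sets a gene little apart in these data. All the changes were small: the log2 fold changes of the 9 genes ran from -0.30 to 0.39, with a median of -0.11 against 0.00 for all genes. Their median absolute log2 fold change was 0.15, and that of all genes 0.11. A change of at least 0.2 with an adjusted p under 0.05 was seen in 4 of the 9 genes, Ubr2, Ubr4, Ube2a and Wdyhv1, and in 29.2% of all genes. With Bonferroni adjustment of the deposited p-values these same 4 genes passed, and 23.8% of all genes did. Each fold change was also compared with those of the 300 genes nearest to it in mean level, whose spread then served as the error instead of that of the authors' edgeR test. By this measure 0 of the 9 passed an adjusted p of 0.05, 3 had an unadjusted p under 0.05 (Ubr2, Ubr4 and Ube2a), and 6.19% of all genes passed, with 13.3% at an unadjusted p under 0.05. In bulk RNA such as this, fewer cells of a type and less RNA per cell cannot be told apart.

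**Figure D1:**
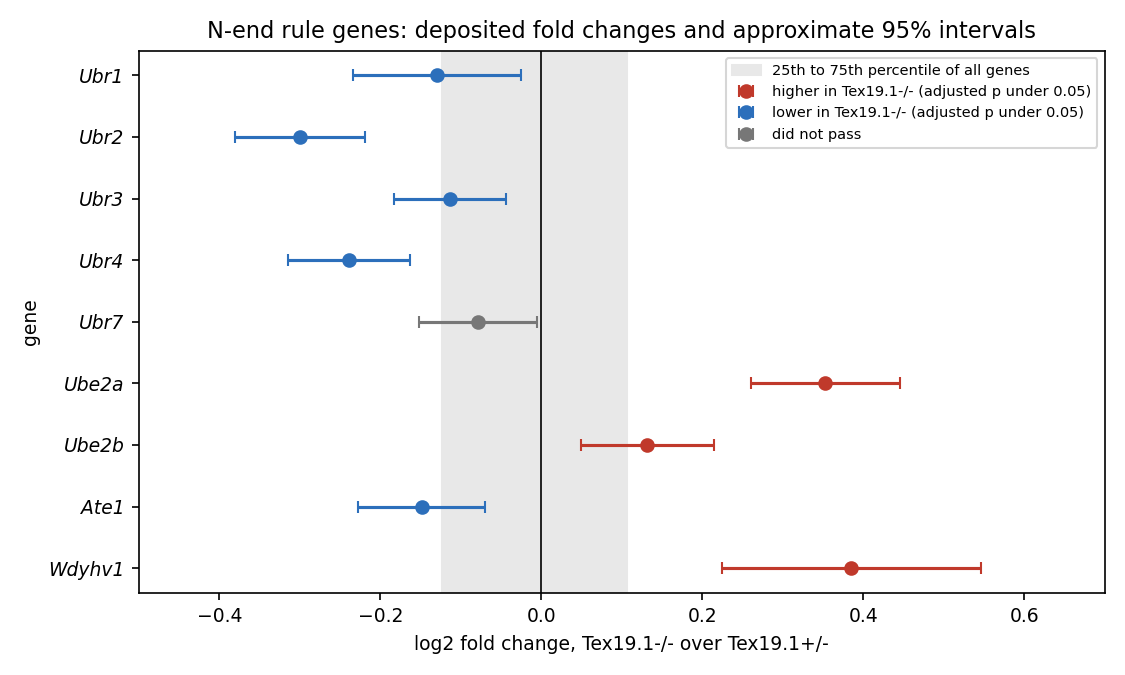
Log2 fold change of Tex19.1-/- over Tex19.1+/- cells (x axis) for the 9 genes (y axis), with points from the authors' deposited table and bars for the approximate 95% intervals. The grey band is the interquartile range of all genes, -0.12 to 0.11; the 5 ligase genes lie left of 0, from -0.30 to -0.08, and both E2 genes right of it, at 0.35 and 0.13.

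UBR2, the ligase that binds the Tex19.1 protein, is needed in mouse spermatogenesis. Its gene, Ubr2, lies on chromosome 17 from 46928295 to 47010556 (GRCm38, minus strand). Ubr2 had the lowest fold change of the 9 genes, -0.30 on the log2 scale in the authors' deposited table (adjusted p = 3.56e-12, edgeR), with an approximate interval from -0.38 to -0.22. In levels this corresponds to 55.7 CPM in Tex19.1-/- cells and 68.5 CPM in Tex19.1+/- cells, a change of -18.8%. The size of this change exceeded that of 91.7% of the 300 genes nearest in mean level. Ubr1, which encodes the closest paralog of UBR2, lies on chromosome 2 from 120860269 to 120970715. Ubr1 was at -0.13 in the authors' deposited table (adjusted p = 0.0302, edgeR; approximate interval -0.23 to -0.03), or 53.8 CPM in Tex19.1-/- cells and 58.9 CPM in Tex19.1+/- cells. The 2 paralogs thus had the same sign, and the approximate intervals meet between -0.23 and -0.22; the difference between them was not tested. No stretch of 59 bases or more is shared exactly between any pair of the 9 genes' annotated transcripts. With genes outside the 9 the same search did find shared stretches of 50 bases. Annotated transcripts of Ubr2 share them with many genes and those of Ubr1 with several, measured genes among them. Reads from such stretches cannot be assigned by sequence alone, and their part in the 2 levels was not tested.

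UBR4, a very large ligase that also binds calmodulin, and UBR3, a relative of UBR1 and UBR2 that is not known to bind the classical N-degrons, followed with the same sign. Ubr4, on chromosome 4 from 139352609 to 139489588, stood at -0.24 in the authors' deposited table (adjusted p = 5.16e-09, edgeR; approximate interval -0.32 to -0.16). Its level was 254 CPM in Tex19.1-/- cells and 300.3 CPM in Tex19.1+/- cells. Ubr4 has the longest transcript of the 9, 15928 bases, and after correction for a trend of the fold changes with GC content and transcript length it stood at -0.13 (adjusted p = 0.00185). In the annotation used here Ubr4 shares exon sequence with Emc1 on the same strand, so that reads from there cannot be assigned to either gene; Emc1 was at -0.09 in the authors' deposited table. Ubr3, on chromosome 2 from 69897246 to 70024013, stood at -0.11 in the authors' deposited table (adjusted p = 0.00362, edgeR; approximate interval -0.18 to -0.04), or 135 CPM in Tex19.1-/- cells and 146 CPM in Tex19.1+/- cells. After the same correction Ubr3 stood at -0.07 (adjusted p = 0.0684) and Ubr1 at -0.10 (adjusted p = 0.113), both with the same sign as before and no longer past the threshold.

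UBR7, whose UBR box stands beside a PHD finger and which is known as a histone H2B ligase, was the member that did not pass. Ubr7, on chromosome 12 from 102757967 to 102777707, was at -0.08 in the authors' deposited table (adjusted p = 0.0648, edgeR), with an approximate interval from -0.15 to -0.01. That interval is computed from the unadjusted p and holds no fall of more than 0.15. Its level was 262 CPM in Tex19.1-/- cells and 277 CPM in Tex19.1+/- cells. Ubr1 and Ubr7 each overlap a gene on the opposite strand in their exons, and with the strand setting of the counting not known, reads from such overlaps cannot be told apart. With the median of genes of like expression subtracted, Ubr7 passed at -0.12 (adjusted p = 0.00412).

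The promoters of Ubr2 and Ubr4, the ligase genes with the largest falls, are shown to let a reader compare them, from 250 bases before to 50 after the RefSeq start (GRCm38.p6). Capitals mark matches, on either strand, to the 10 motifs searched: the SP1 box GGGCGG, the ETS site CCGGAAG, the CCAAT box CCAAT, the NRF1 site, the antioxidant response element TGACNNNGC, the E-box CACGTG, the YY1 site AAGATGGC, the cAMP response element TGACGTCA, the TATA box TATAAA and the ZNF143 site, whose letters are the runs in capitals of the Ubr2 window. The Ubr2 window is chr17:47010483-47010782 on the minus strand, and the Ubr4 window is chr4:139380409-139380708 on the plus strand. The Ubr4 window lies inside the span given above for Ubr4, so the RefSeq start differs from the annotated start of that span. That annotated start lies 0.022 kb from the start of Emc1, and distances from Ubr4 to its neighbours are measured from it.
Ubr2: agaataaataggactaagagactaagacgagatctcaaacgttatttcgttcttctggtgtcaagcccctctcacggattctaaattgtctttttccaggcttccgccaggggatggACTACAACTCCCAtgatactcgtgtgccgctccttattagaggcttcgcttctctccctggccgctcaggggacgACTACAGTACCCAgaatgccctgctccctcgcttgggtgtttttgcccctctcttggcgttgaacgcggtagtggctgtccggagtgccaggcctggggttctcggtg
Ubr4: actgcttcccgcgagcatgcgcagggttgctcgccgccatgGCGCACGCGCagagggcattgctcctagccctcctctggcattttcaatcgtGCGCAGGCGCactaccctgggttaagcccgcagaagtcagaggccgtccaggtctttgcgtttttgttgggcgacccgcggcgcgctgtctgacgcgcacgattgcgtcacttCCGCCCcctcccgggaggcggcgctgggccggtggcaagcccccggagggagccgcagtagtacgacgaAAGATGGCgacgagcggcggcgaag
The Ubr2 window holds 2 matches to the ZNF143 site, starting 133 and 58 bases before the RefSeq start, and no match to the other 9 motifs. ZNF143 is a zinc finger activator of many housekeeping promoters. Its letters were added to the search after the Ubr2 sequence had been read, and they occur in 1.69% of the 32851 windows of 300 bases in the RefSeq table. The Ubr4 window holds 2 matches to the NRF1 site, which 4.6% of windows have, 1 to the SP1 box (35.7% of windows) and 1 to the YY1 site (2.75% of windows), with no overlap between them. The 2 windows thus share none of the motifs searched, and a link between these motifs and the falls was not tested.

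The E2 enzyme genes Ube2a and Ube2b both rose, the opposite sign to every ligase gene among the 9. Sign also went with transcript length. The longest annotated transcripts of Ube2b, Ube2a and Wdyhv1 have 1792 bases or fewer, and those of the other 6 genes 3261 or more. Correction for GC content and length left all 9 fold changes smaller in size, with their signs kept. The part that length plays in this contrast was not tested. UBE2A and UBE2B are near-identical proteins that also serve RAD18 in DNA damage tolerance and RNF20 in histone H2B ubiquitination. Ube2a, on the X chromosome from 36873900 to 36884222, stood at 0.35 in the authors' deposited table (adjusted p = 9.47e-13, edgeR), with an approximate interval from 0.26 to 0.45. This corresponds to 45.3 CPM in Tex19.1-/- cells and 35.4 CPM in Tex19.1+/- cells, a change of 27.7%, larger in size than that of 89.3% of genes of like expression. Ube2b, on chromosome 11 from 51985497 to 52000762, stood at 0.13 in the authors' deposited table (adjusted p = 0.00443, edgeR), with an approximate interval from 0.05 to 0.21. Its level was 74.1 CPM in Tex19.1-/- cells and 67.6 CPM in Tex19.1+/- cells, a change of 9.56%. The approximate intervals of the 2 genes do not overlap, but their difference was not tested. After correction for GC content and length, Ube2a stayed past the threshold at 0.31, and Ube2b did not pass at 0.09 (adjusted p = 0.0558).

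The promoters of this paralog pair are shown because the proteins are near-identical while the fold changes are not the same. The Ube2a window is chrX:36874045-36874344 on the plus strand, and the Ube2b window is chr11:52000737-52001036 on the minus strand, the first of 2 starts that RefSeq lists for Ube2b. Capitals mark the same motifs as above.
Ube2a: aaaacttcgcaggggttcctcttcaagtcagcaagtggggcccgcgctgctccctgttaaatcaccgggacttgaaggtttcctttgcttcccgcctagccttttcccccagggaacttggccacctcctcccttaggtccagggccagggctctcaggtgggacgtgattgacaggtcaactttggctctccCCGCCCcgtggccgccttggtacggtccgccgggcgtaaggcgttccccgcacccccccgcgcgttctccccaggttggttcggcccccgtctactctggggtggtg
Ube2b: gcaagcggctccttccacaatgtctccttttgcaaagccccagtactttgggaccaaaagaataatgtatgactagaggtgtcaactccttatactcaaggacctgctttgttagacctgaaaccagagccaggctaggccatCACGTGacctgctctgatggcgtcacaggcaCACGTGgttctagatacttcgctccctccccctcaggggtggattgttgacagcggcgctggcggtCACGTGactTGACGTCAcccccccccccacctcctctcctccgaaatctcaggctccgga
The Ube2a window holds 1 SP1 box on its minus strand, 57 bases before the start, and matches none of the other motifs. The Ube2b window holds 3 E-boxes, at 107, 76 and 10 bases before the start, and 1 cAMP response element that begins 1 base before it. E-boxes occur in 7.15% of RefSeq windows and the cAMP response element in 1.79%; both sequences read the same on either strand. The window at the second RefSeq start of Ube2b, chr11:52000442-52000741, holds 2 SP1 boxes and 1 ETS site but neither an E-box nor the cAMP response element, so which motifs the paralogs share depends on the start. CG dinucleotides number 20 in the Ube2a window, 12 in the first Ube2b window and 36 in the second, with a median of 7 over all windows.

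The genes of the 2 enzymes that prepare N termini moved in opposite directions. Wdyhv1, the gene of the glutamine deamidase, lies on chromosome 15 from 58141377 to 58158665. It had the highest fold change of the 9 genes, 0.39 in the authors' deposited table (adjusted p = 1.23e-05, edgeR), with the widest approximate interval, from 0.22 to 0.55. Wdyhv1 had 8.5 CPM in Tex19.1-/- cells and 6.50 CPM in Tex19.1+/- cells, and 77.7% of genes of like expression had smaller changes. Ate1, the arginyltransferase gene, lies on chromosome 7 from 130391493 to 130520369. It stood at -0.15 in the authors' deposited table (adjusted p = 7.20e-04, edgeR), with an approximate interval from -0.23 to -0.07, or 52.2 CPM in Tex19.1-/- cells and 57.9 CPM in Tex19.1+/- cells.

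**Figure D2:**
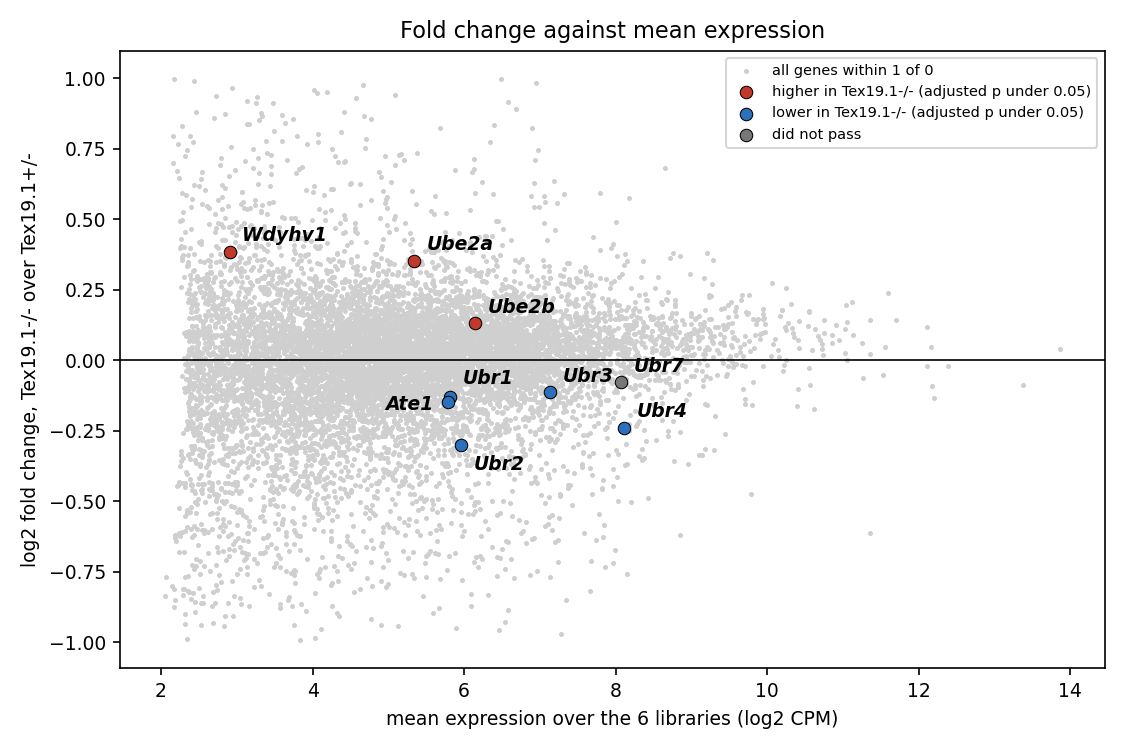
Log2 fold change of Tex19.1-/- over Tex19.1+/- cells (y axis) against mean expression over the 6 libraries in log2 CPM (x axis), from the authors' deposited table. Grey points are the 9980 genes with a fold change between -1 and 1, and 148 genes lie outside the axes; coloured points are the 9 genes, of which Wdyhv1 has the lowest mean, at 2.91, and Ubr4 the highest, at 8.12.

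Per kilobase of the longest annotated transcript, the mean level over all libraries was highest for Ubr7, at 82.7 CPM per kb. Ube2b followed at 39.5 and Ube2a at 23.3 CPM per kb. Ubr4 and Ubr3 were both at 17.4 CPM per kb, Ate1 at 11.6, Ubr2 at 8.14 and Ubr1 at 7.25, and Wdyhv1 came last at 5.42 CPM per kb. The median of all genes on this scale was 10.1 CPM per kb, so both E2 genes stood above it and the paralogs Ubr1 and Ubr2 below. Without values by library it cannot be said which neighbours in this order differ beyond their spread.

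Further genes of the pathway showed small changes in both directions. Fbxo11, which encodes an F-box protein that carries a UBR box, was at -0.11 in the authors' deposited table (adjusted p = 0.0239, edgeR). Among the enzymes, Ntan1, the asparagine deamidase gene that parallels Wdyhv1, stood at -0.10 (adjusted p = 0.0474, edgeR), and Ado, which encodes the oxygenase of N-terminal cysteine, at -0.14 (adjusted p = 0.00328, edgeR) in the authors' deposited table. The methionine aminopeptidase genes, whose products remove the first residue of new proteins, stood at 0.03 for Metap1 and -0.03 for Metap2, which did not pass, and at 0.16 for Metap1d (adjusted p = 0.0182, edgeR) in the authors' deposited table. Thus the 2 deamidase genes had opposite signs, Wdyhv1 higher and Ntan1 lower.

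Genes whose products share an enzyme or a partner with those of the 9 were examined next. Of 6 other ligase partner genes of UBE2A and UBE2B, 2 rose and 4 did not pass, with a median of 0.07. Rnf20, of the histone H2B ligase, was at 0.14 and Hltf, of a PCNA ligase, at 0.12, while Rnf40 at 0.07 and Shprh at 0.06 did not pass in the authors' deposited table. Of 7 partners of UBR4 and carriers of N-degrons to autophagy, 2 rose, 1 fell and 4 did not pass, with a median of 0.03. Kcmf1, whose protein forms a complex with UBR4, was at -0.14 (adjusted p = 3.25e-04, edgeR) in the authors' deposited table, the same sign as Ubr4. Calm3, a calmodulin gene, rose by 0.19 and Hspa5, whose chaperone product can be arginylated, by 0.13, and the autophagy receptor gene Sqstm1 stood at 0.08 without passing in the authors' deposited table.

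Of the pathway genes described, the calpain gene Capn2 had the fold change of largest size. Of 7 measured genes of known substrates and of proteases that create N-degrons, from 11 listed, 3 fell, 1 rose and 3 did not pass. Capn2 and Capn1, which encode the catalytic subunits of the calcium-dependent calpains, had log2 fold changes of -0.90 (adjusted p = 3.11e-76, edgeR) and -0.43 (adjusted p = 1.58e-18, edgeR) in the authors' deposited table. In levels Capn2 had 33.8 CPM in Tex19.1-/- cells and 62.9 CPM in Tex19.1+/- cells, and Capn1 had 31.8 CPM in Tex19.1-/- cells and 42.8 CPM in Tex19.1+/- cells. Brca1 stood at 0.19 and Ripk1, of a cell death kinase, at -0.20 in the authors' deposited table, both past the threshold. The cohesin subunit gene Rad21, whose separase fragment is a substrate of the pathway, was at -0.04 (adjusted p = 0.369, edgeR), and the separase gene Espl1 at 0.00 (adjusted p = 0.948, edgeR) in the authors' deposited table; these last 2 were named after their values had been seen.

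The neighbouring degron branches went both ways. Over the 59 pathway genes described outside the 9, 14 rose, 15 fell and 30 did not pass, which is 49.2% called against 51.7% of all genes, with a median of 0.00. Of 11 N-terminal acetyltransferase genes 4 rose and 2 fell; in the authors' deposited table Naa20, the catalytic subunit of NatB, was at 0.52 (adjusted p = 5.85e-33, edgeR), Naa16, a NatA auxiliary subunit, at -0.53 (adjusted p = 2.68e-26, edgeR) and Naa10, the catalytic subunit of NatA, at 0.16. Measured genes within 1 Mb had a median of 0.68 around Naa20 and -0.70 around Naa16, each with the sign of the gene itself. Of the 2 ligase genes of the acetylation branch, March6 fell, at -0.25, and Cnot4 stood at -0.01 in the authors' deposited table. In the GID/CTLH ligase that reads N-terminal proline, 2 of 12 rose and 4 fell: Gid4, the proline receptor gene, was at 0.22, Mkln1 at -0.17, Ranbp9 at -0.16 and Maea, of a RING subunit, at -0.10 in the authors' deposited table. In the glycine branch 2 of 8 rose and 1 fell, with the myristoyltransferase genes Nmt2 at 0.32 and Nmt1 at 0.13, Cul2 at -0.14 and Elob, which did not pass, at 0.06 in the authors' deposited table.

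**Figure D3:**
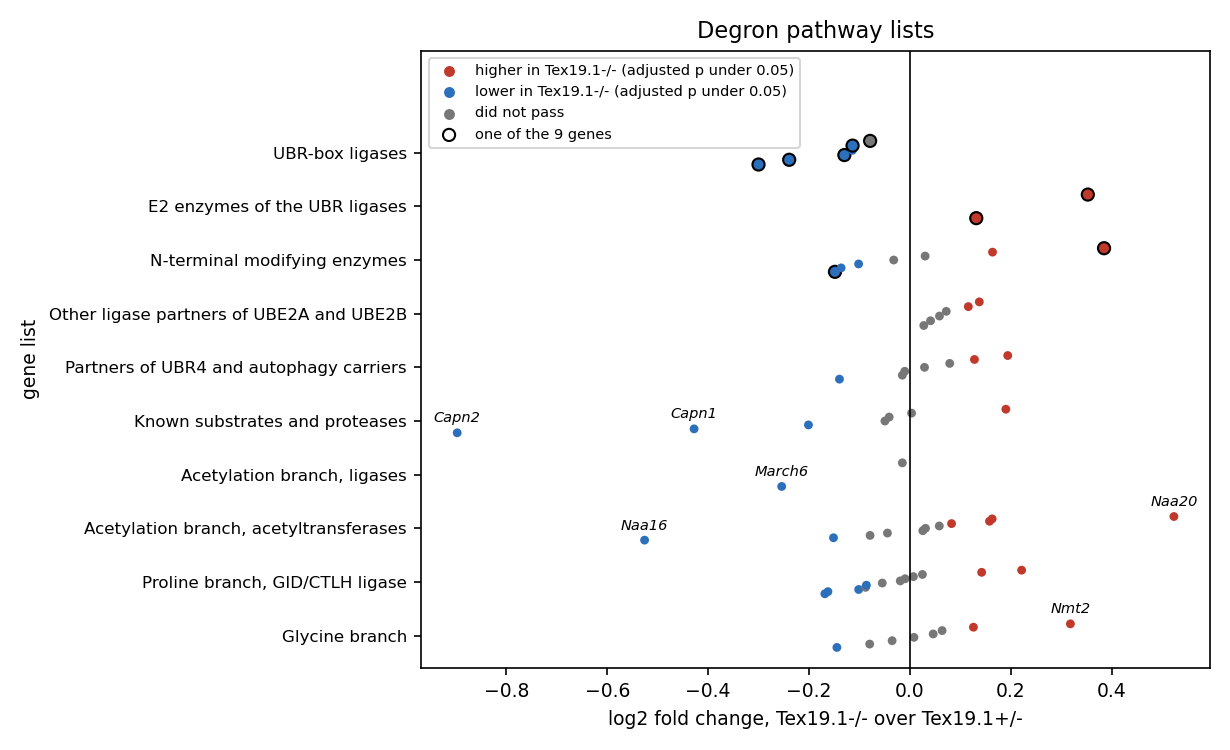
Log2 fold change of Tex19.1-/- over Tex19.1+/- cells (x axis) for the 68 genes described from the 10 gene lists (y axis), from the authors' deposited table; height within a row only separates points, and the point of Fbxo11 lies behind that of Ubr3. Outlined points are the 9 genes; the points farthest from 0 are Capn2 at -0.90, Naa16 at -0.53 and Naa20 at 0.52.

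Genes near each of the 9 were examined for shared direction. The counts are to be read beside all genes, of which 25.2% rose and 26.5% fell. Ube2b moved with its neighbourhood: 9 of 14 measured genes within 1 Mb rose and 1 fell, with a median of 0.14 beside 0.13 for Ube2b itself. Its chromosome, 11, had a median of 0.07, and the nearest measured genes, Cdkn2aipnl and the phosphatase gene Ppp2ca, were at 0.22 and 0.15 in the authors' deposited table. Around Ube2a the median of 12 genes was 0.10 and that of the X chromosome 0.07, both below the 0.35 of Ube2a; its nearest measured genes Slc25a5 and Nkrf were at 0.09 and 0.16 in the authors' deposited table. Wdyhv1 stood apart from the genes around it, with a median of 0.00 over 11 genes, of which 1 rose, 1 fell and 9 did not pass. The highest of the 11 was at 0.18, and the nearest, Atad2 and Fam91a1, were at 0.07 and 0.05 in the authors' deposited table, neither past the threshold.

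Around Ubr2, 13 of 37 measured genes within 1 Mb fell and 5 rose, with a median of -0.05. Of all genes 51.7% passed, 26.5% lower and 25.2% higher, so such counts alone set a neighbourhood little apart. Its nearest measured genes on either side also fell, Tbcc at -0.18 and Trerf1 at -0.29 in the authors' deposited table. Around Ubr4 the median of 13 genes was -0.11, with 7 lower and 2 higher; on the side away from Emc1 the nearest was Iffo2 at 0.11, which did not pass in the authors' deposited table. Around Ubr7 6 of 12 genes fell and 2 rose, with a median of -0.12; Tmem251 was at 0.29 and Btbd7 at -0.36 in the authors' deposited table. Around Ubr3 3 of 11 genes rose and 8 did not pass, with a median of 0.07. The nearest measured genes on either side by annotated start were Mettl5 at 11.6 kb and Gad1 at 656 kb. Their fold changes were 0.17 and 0.75 in the authors' deposited table. Around Ubr1 5 of 33 genes rose and 7 fell, with a median of -0.03; Tmem62, whose annotated start is 6.30 kb away, was at -1.02 and Ttbk2 at -0.09 in the authors' deposited table. Around Ate1 1 of 8 genes rose, 3 fell and 4 did not pass, with a median of -0.01 and a lowest value of -1.09. The nearest on either side by annotated start, Nsmce4a at 52.7 kb and Wdr11 at 929 kb, had fold changes of 0.02 and 0.01 in the authors' deposited table. Fgfr2, also measured, overlaps Ate1 on the same strand without overlap of exons and is not among the 8. How far a shifted neighbourhood contributes to any of these values was not tested.

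**Figure D4:**
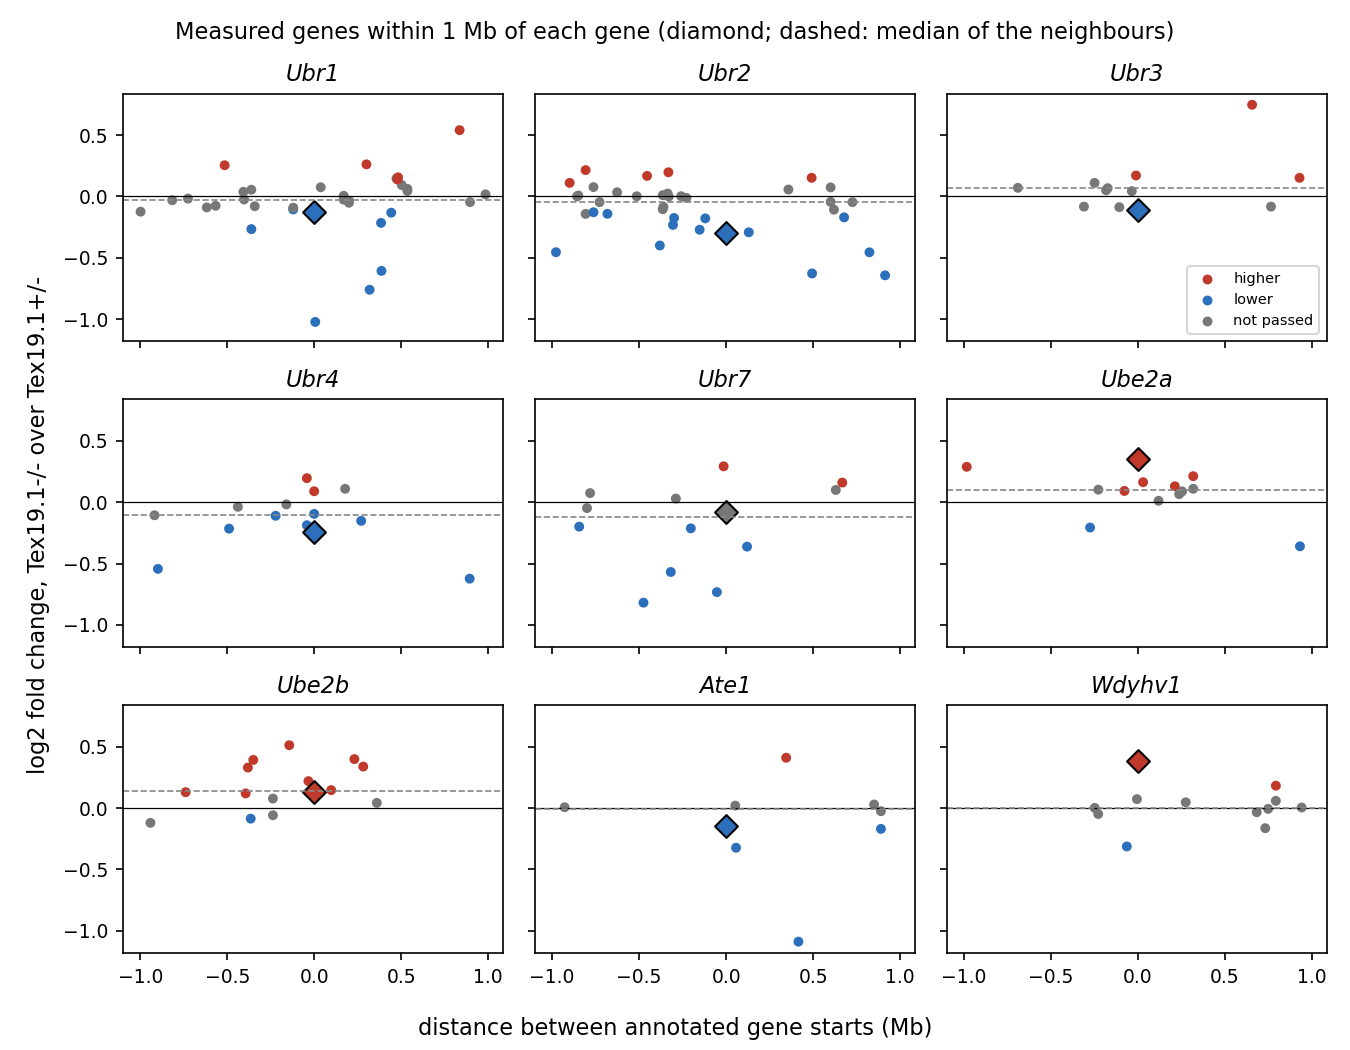
Log2 fold change of Tex19.1-/- over Tex19.1+/- cells (y axis) of measured genes within 1 Mb of each of the 9 genes, against the distance in Mb between annotated gene starts (x axis), from the authors' deposited table. Diamonds are the 9 genes and dashed lines the median of the neighbours, which is 0.14 around Ube2b, close to Ube2b itself, and 0.00 around Wdyhv1, at 0.39.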

How the data were processed

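RNA of cultured mouse ES cells was extracted with TRIzol, made into stranded mRNA libraries and sequenced in pairs, per the labels' protocols. Per the submitters' processing notes, the build was mm10 and the tools were edgeR, HTSeq 0.11.2, TopHat2 2.1.0 and Trim Galore 0.4.1. Which annotation, strand setting, low-count filter and edgeR test were used is not given in the sources used here. Per the file headers, the authors deposited for each gene a log2 fold change, a mean level as log2 CPM, a p-value and an adjusted p-value, in 1 table. The lowest mean in it is 3.52 CPM. The headers do not give the direction of the fold change, which was read from Tex19.1.

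From these values the following was computed here (Python 3.11.15, scipy 1.17.1, statsmodels 0.14.6). Standard errors are the absolute fold change divided by the normal quantile of its p-value. Levels by genotype follow from the mean CPM and the fold change, taking both genotypes as equal in number. Positions and transcript lengths come from GENCODE M21 (GRCm38, the assembly that mm10 names), which matched 9723 of the 10128 genes. GC content and length trends were removed by lowess with a span of 0.3. Promoters come from RefSeq (GRCm38.p6): 8 of the 9 genes matched, with 10 windows. Exact shared stretches of 50 bases were sought in steps of 10 along all annotated transcripts. The standard errors, the calls by adjusted p and the calls against the spread of genes of like expression were tested on simulated fold changes.

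The 9 genes and the gene lists were chosen with earlier results of these data known. Of 72 listed genes, the 9 included, 68 were measured; the lists and their counts are not complete, since a gene of the UBR-box list is not reported here. Named are the 9 genes, the other UBR-box and N-terminal enzyme genes, and up to 4 genes of each other list with the smallest p-value. Also named is the nearest measured gene, by annotated start, on either side of each of the 9. Fgfr2 is named for its overlap with Ate1, and any other is named as such. No protein sequence is shown.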

Additional observations from a re-analysis of the deposited data

How the results depend on the processing

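Of the 9 genes, 3 rose and 5 fell at the authors' threshold. With Bonferroni adjustment 2 of the 5 falls passed, and 2 reached a size of 0.2. Of all genes, in either direction, 51.7% passed at the authors' threshold, 23.8% with Bonferroni adjustment and 29.2% with that size as well. Against the spread of genes of like expression 6.19% passed. After correction for GC content and length 3 falls passed (Ubr2, Ubr4 and Ate1). The share of all genes that passed after this correction is not given here, so that count cannot be set against it. Against the spread of genes of like expression 0 falls and 0 rises passed; the lowest adjusted p there was 0.211, that of Ubr4. No sign of the 9 genes or of their median was turned by subtracting the median of all genes, that of genes of like expression or the GC and length trend; the median ran from -0.14 to -0.08. Of the 59 other pathway genes, 14 rose and 15 fell. With Bonferroni adjustment 5 rises and 4 falls passed. A size of 0.2 left 3 rises and 5 falls, and the spread of genes of like expression 1 rise (Naa20) and 2 falls (Capn2 and Naa16). An adjusted p under 0.01, genes of at least 16 CPM alone (which leaves out Wdyhv1) and subtracting the median of all genes kept each count within 1.5 times. No paired analysis was possible because the deposited table has 1 value per gene and none by library; for the same reason leaving out single replicates was not run. Depth by library is unknown, so what it limits cannot be stated.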

Other observations

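Of the 59 pathway genes outside the 9, the 3 that passed against the spread of genes of like expression were Capn2, Naa16 and Naa20. Naa16, on chromosome 14 from 79325269 to 79390778, was at -0.53 in the authors' deposited table, and all 9 measured genes within 1 Mb of it fell, with a median of -0.70. Naa20, on chromosome 2 from 145902099 to 145916425, was at 0.52 in the authors' deposited table; of 5 measured genes within 1 Mb 4 rose and none fell, with a median of 0.68. Both acetyltransferase genes thus changed by less than the median of the genes around them. Chromosome 14 had a median of -0.12 and chromosome 2 a median of -0.01. Capn2, on chromosome 1 from 182467260 to 182517608, was at -0.90 in the authors' deposited table, while the 11 genes around it had a median of -0.04 and a lowest value of -0.34. What part the neighbourhoods play was not tested.

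Across the 10 RefSeq windows of 8 of the 9 genes, 7 held an SP1 box, against 35.7% of all windows, and 3 an ETS site, against 8.86%. The CCAAT box was found in 3 of the 10 (37.4% of all windows), the antioxidant response element in 2, both of them windows of Ate1 (12.4% of all windows), and the TATA box in none (13.6% of all windows). The number of CG dinucleotides ran from 5 to 37 with a median of 21.5, and the median of all windows was 7. Matches to GC-rich letters rise with GC content, and this was not adjusted for. The set of all windows was not limited to genes measured here, and Ube2b and Ate1 each gave 2 of the 10.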
